A study of Mus musculus with 9 samples.

Results

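Comma-1D is an established line of mouse mammary epithelial cells that keeps several cell populations in 1 culture. The libraries compared here are the L population, sorted as Sca-1 low and EpCAM high, and the B population, sorted as Sca-1 high and EpCAM low. They were chosen by their titles, which give the population and the arm, and make 6 of the 9 libraries of the study, with 3 for L and 3 for B. Each population came in 3 arms: cells transduced with MYC as an activated oncogene, cells transduced with Her2 as an activated oncogene, and control cells. All cells shared a medium with fetal calf serum, murine EGF and human insulin. The remaining 3 libraries, from cells high for both surface proteins (called bi), enter the fit described below. The labels give neither the species of the transgenes, nor whether the controls carried a vector, nor whether the arms were separate cultures. The p-values measure the spread between the 9 libraries that population and arm leave over. That spread holds the interaction of population and arm, and how much of it is technical is not known.

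The mammary duct has an inner layer of luminal cells and an outer layer of basal, or myoepithelial, cells. Luminal cells hold together through E-cadherin and desmosomes, seal the lumen with tight junctions of claudins and occludin, carry the simple keratins 7, 8, 18 and 19, and sort proteins to an apical surface. Basal cells carry keratins 5 and 14 and the factor p63, lay down basement membrane and contract through smooth muscle actin. Epithelial cells can lose E-cadherin and their junctions while they gain matrix and motility genes, a state driven by the repressors ZEB1 and ZEB2, which bind the letters CAGGTG in promoters, and opposed by factors such as GRHL2, which binds AACCGGTT. EpCAM marks epithelial cells, with more of it on luminal than on basal ones, and Sca-1, encoded by Ly6a, is carried by part of the mammary cells.

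The promoters of 4 genes higher in L and of 1 gene lower in L are printed here because they show the CAGGTG letters that the shares below count. They are RefSeq sequences of build GRCm38.p6, 250 bases before to 50 after the start RefSeq gives the gene, on the strand of the gene, with each CAGGTG, or CACCTG where it lies on the other strand, in capitals. Ap1m2 (chr9:21312284-21312583, minus strand) encodes an adaptor subunit that sorts cargo to the basolateral membrane of epithelial cells, Rab25 (chr3:88548230-88548529, minus strand) a small GTPase of epithelial recycling, Cldn4 (chr5:134946885-134947184, minus strand) a claudin and Krt7 (chr15:101412153-101412452, plus strand) a simple keratin. Igfbp4 (chr11:99040994-99041293, plus strand) encodes an insulin-like growth factor binding protein.
Ap1m2: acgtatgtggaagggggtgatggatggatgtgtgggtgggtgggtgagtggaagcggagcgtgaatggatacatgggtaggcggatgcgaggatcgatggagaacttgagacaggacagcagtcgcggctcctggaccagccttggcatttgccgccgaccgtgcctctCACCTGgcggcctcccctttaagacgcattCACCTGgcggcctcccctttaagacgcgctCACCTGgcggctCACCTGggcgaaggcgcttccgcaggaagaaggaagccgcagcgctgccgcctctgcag
Rab25: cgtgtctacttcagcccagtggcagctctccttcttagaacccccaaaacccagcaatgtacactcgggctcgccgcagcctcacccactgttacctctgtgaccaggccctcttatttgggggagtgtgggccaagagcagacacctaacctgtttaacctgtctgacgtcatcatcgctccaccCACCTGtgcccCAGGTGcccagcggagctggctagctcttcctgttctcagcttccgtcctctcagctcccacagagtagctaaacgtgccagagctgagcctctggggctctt
Cldn4: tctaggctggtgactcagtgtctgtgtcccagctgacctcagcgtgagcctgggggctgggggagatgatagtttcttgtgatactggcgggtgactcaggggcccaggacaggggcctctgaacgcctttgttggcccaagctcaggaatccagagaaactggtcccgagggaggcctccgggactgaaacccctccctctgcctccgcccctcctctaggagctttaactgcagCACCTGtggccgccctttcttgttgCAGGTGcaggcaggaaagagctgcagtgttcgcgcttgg
Krt7: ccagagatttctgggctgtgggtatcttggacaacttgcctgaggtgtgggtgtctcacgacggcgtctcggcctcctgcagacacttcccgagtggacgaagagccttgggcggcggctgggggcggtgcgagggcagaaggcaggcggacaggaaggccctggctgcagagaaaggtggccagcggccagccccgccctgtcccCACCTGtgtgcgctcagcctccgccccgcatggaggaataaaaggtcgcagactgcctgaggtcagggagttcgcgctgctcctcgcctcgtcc
Igfbp4: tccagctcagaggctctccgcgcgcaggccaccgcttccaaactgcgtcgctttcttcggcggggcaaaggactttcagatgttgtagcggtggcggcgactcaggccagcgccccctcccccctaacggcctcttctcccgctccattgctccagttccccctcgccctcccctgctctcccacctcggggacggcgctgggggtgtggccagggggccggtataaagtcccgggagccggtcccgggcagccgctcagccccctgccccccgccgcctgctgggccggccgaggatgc
Ap1m2 held 4 matches, Rab25 and Cldn4 held 2 each, Krt7 held 1 and Igfbp4 held 0. Those of Ap1m2 began 81, 51, 21 and 9 bases before the start. The Rab25 pair began 64 and 53 bases before it, and the Krt7 match 44 bases before it. Cldn4 had 1 match 14 bases before the start and 1 that began at base 12 after it.

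Levels are given as CPM, read counts scaled to library size with trimmed mean of M values (TMM) factors, always in the order MYC, Her2 and control arm. The L libraries held 69.3, 75.6 and 75.4 M reads and the B libraries 46.9, 51.7 and 54.0 M reads (M, mega), so every L library was deeper than every B library, and the part of depth in low counts was not tested. A fold change is log2 of L over B, averaged over the 3 arms in 1 additive model of population and arm on all 9 libraries, and is printed ± its SE. A gene was called at an adjusted p under 0.05 in edgeR's quasi-likelihood test, with Benjamini-Hochberg adjustment over all 23834 tested genes. Neither population has a replicate within an arm, so each arm stands as 1 repeat of the comparison, and a gene that differs unevenly between arms loses precision. In bulk samples fewer cells of a type and less RNA per cell cannot be told apart.

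Between L and B 4953 genes were called, 20.8% of those tested, with 2746 higher in L (11.5%) and 2207 lower (9.26%). At an unadjusted p under 0.05 the count was 7626. Of the called genes 4927 had the same sign in all 3 arms. Genes whose ratio turned between arms could seldom be called, so this count was nearly fixed by the test. In 4348 of the called genes the 3 L libraries lay entirely above or below the 3 B libraries, which held for 7665 genes (32.2%) over all tested. The strong differences ran mostly 1 way. At 4-fold or more 1406 genes were called higher in L and 529 lower, and at 64-fold or more 328 were higher and 12 lower. Of the genes called higher in L 713 averaged under 0.1 CPM in B, while 104 of those called lower averaged under 0.1 CPM in L. The filter for tested genes ran over all 9 libraries, so reads in the bi libraries could keep a gene with few reads in B or in L. The part of the filter and of depth in this imbalance was not tested. Protein-coding genes were called higher in 14.5% and lower in 12.3% of cases, and long intergenic noncoding genes in 7.08% and 3.48%. Within the MYC arm alone 1923 genes (8.07%) were at least 4-fold higher in L and 700 (2.94%) at least 4-fold lower. The Her2 arm gave 1761 (7.39%) higher and 681 (2.86%) lower, and the control arm 1216 (5.1%) higher and 727 (3.05%) lower. On the log of deposited TPM + 1 the control arm was nearer to even, with 273 genes higher and 230 lower at the same limit. The MYC arm there gave 514 higher and 190 lower, and the Her2 arm 456 higher and 209 lower.

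**Figure D1:**
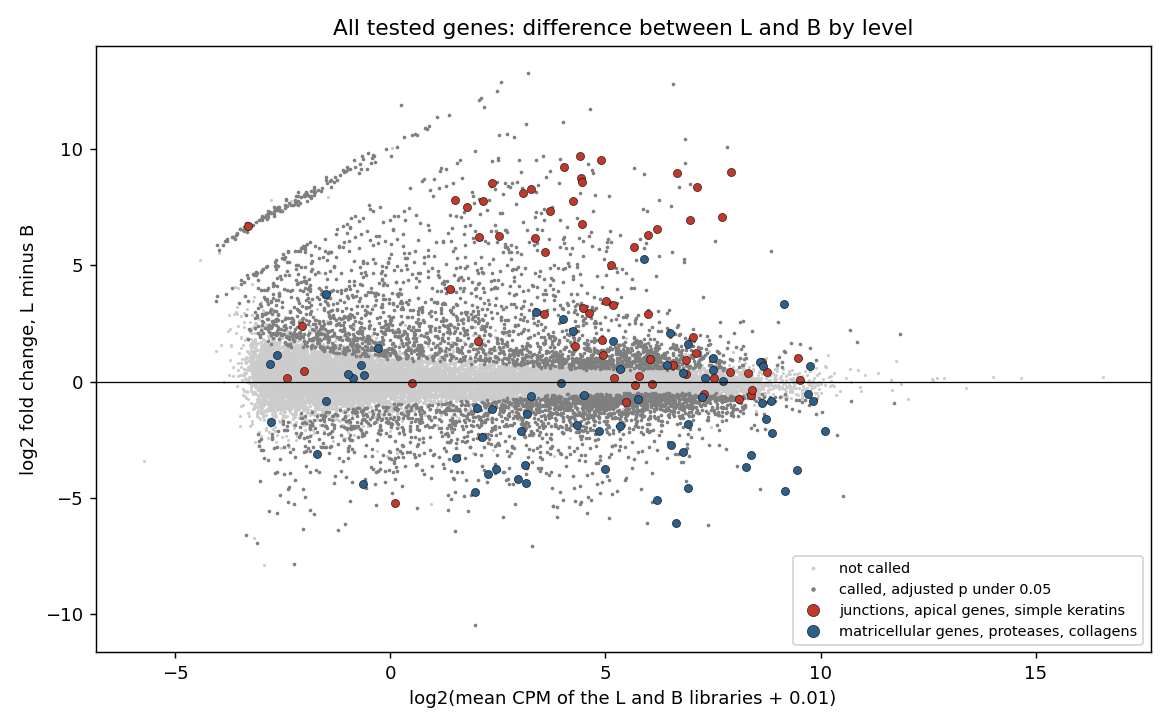
Each point is 1 tested gene, with its mean level over the L and B libraries on the horizontal axis (log2 of CPM + 0.01) and its log2 fold change, L minus B, on the vertical axis. Dark grey points are the 4953 called genes. Members of the junction, apical and simple keratin lists (red) reach far above 0 and those of the matricellular, protease and collagen lists (blue) lie mostly below it. The slanted rows of points at the upper left are genes with 0 or few reads in B, whose fitted fold change depends on the prior count.

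**Figure D2:**
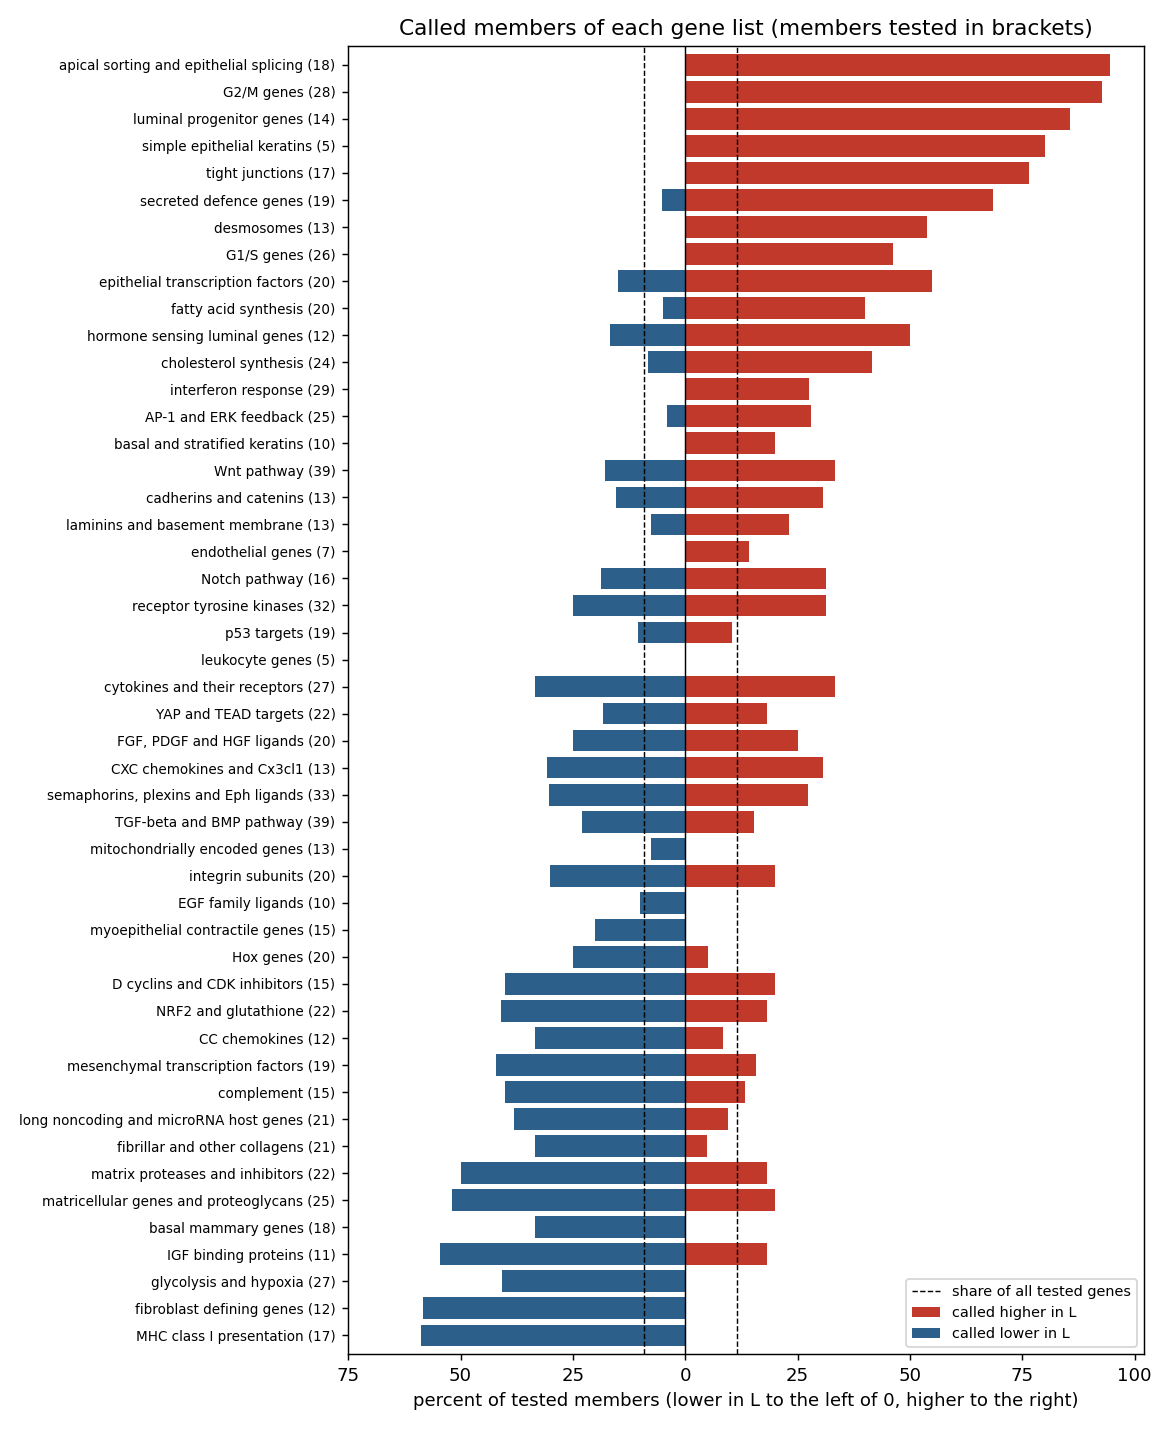
Share of the tested members of each of 48 gene lists called higher in L (red, right of 0) or lower in L (blue, left of 0), with the number of tested members in brackets. Dashed lines give the shares over all tested genes, 11.5% higher and 9.26% lower. Apical, G2/M, luminal progenitor, simple keratin and tight junction lists lie at the top, and MHC class I, fibroblast and hypoxia lists at the bottom.

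The sort could be read in its own genes. Ly6a was at 12.8, 2.37 and 6.53 CPM in L, against 112, 19.5 and 57.8 CPM in B, and Epcam was at 331, 609.6 and 408 CPM in L, against 0.183, 0.307 and 0.764 CPM in B. In every arm Ly6a was lower and Epcam higher in L, the directions the sort selected, so no test is given for them. Ly6a also differed between the arms of each population, with the MYC library highest and the Her2 library lowest in L and in B. Cdh1, which encodes E-cadherin, was at 432, 644 and 366 CPM in L, against 0.549, 0.479 and 2.02 CPM in B (log2 fold change 8.99 ± 0.61, adjusted p = 1.32e-05). Krt7 was at 76.6, 680.4 and 84.3 CPM in L, against 0.457, 0.537 and 0.746 CPM in B (log2 fold change 8.34 ± 0.84, adjusted p = 0.000126). Cdh1 and Krt7, which were not used in the sort, were thus higher in L in every arm. For both genes none of the L libraries came near a B library. Cdh1 lies at chr8:106603351-106670246 and Krt7 at chr15:101411043-101430313 in GRCm38, the assembly also called mm10. These are the gene bounds of the annotation used for the symbols, in which Krt7 begins upstream of the RefSeq start used for its promoter.

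**Figure D3:**
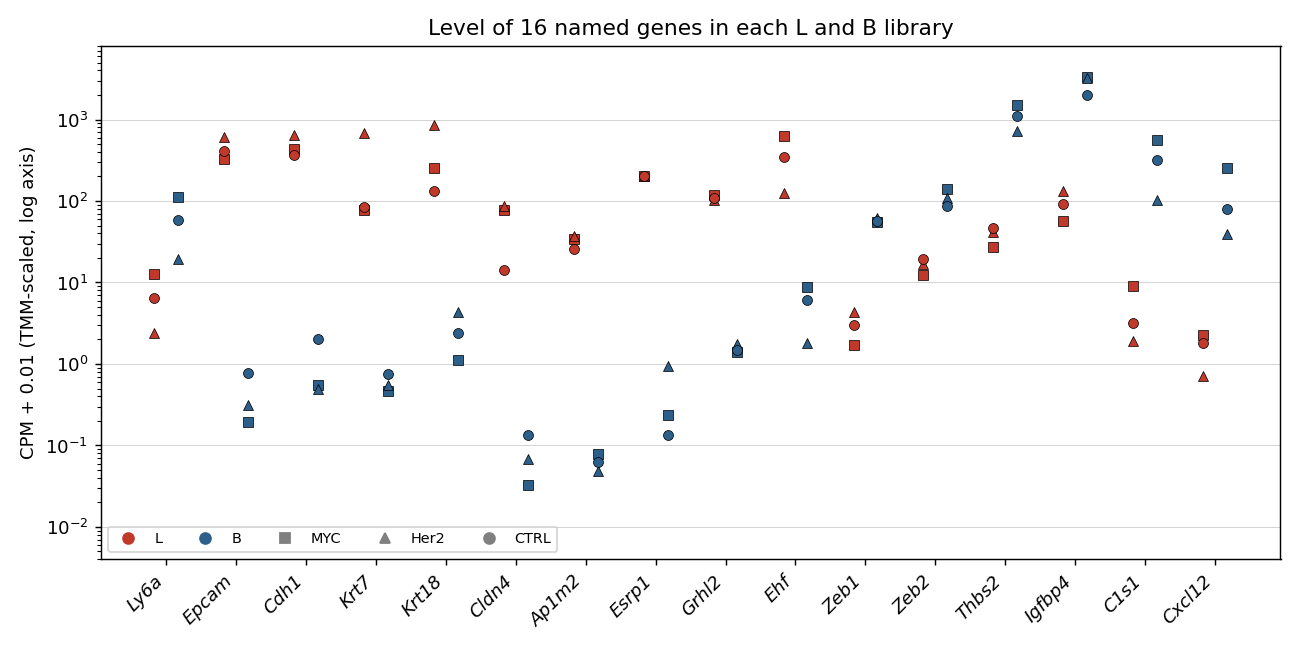
Levels of 16 named genes in each library, on a log axis of CPM + 0.01. L libraries (red) stand left of B libraries (blue), and the symbol gives the arm. Epcam, the junction genes, the keratins, Ap1m2, Esrp1, Grhl2 and Ehf lay higher in each L library, and Ly6a, Zeb1, Zeb2, Thbs2, Igfbp4, C1s1 and Cxcl12 lower, with no overlap for any of the 16 genes.

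Genes of the tight junction were higher in L almost throughout. Of 17 tested members 13 rose and 0 fell, against 11.5% and 9.26% of all tested genes. The median log2 fold change of the list was 5.57, against 0.04 over all tested genes. With Cldn2, which had no reads in B, set at its bound of 3 reads the list's median is 3.96. Cldn4 was at 77.1, 86.6 and 14.3 CPM in L, against 0.0229, 0.0575 and 0.124 CPM in B (log2 fold change 9.52 ± 1.01, adjusted p = 0.000175). The tricellular junction gene Marveld2 was at 9.01, 15.6 and 6.15 CPM in L, against 0.0457, 0 and 0.0355 CPM in B (log2 fold change 8.52 ± 0.80, adjusted p = 8.26e-05). Each L library lay above all B libraries for both genes, and the low point of Cldn4 in L was the control library. Cldn3 (log2 fold change 7.79) and Cldn7 (7.32) rose as well. The scaffold gene Tjp1, which encodes ZO-1, did not pass, at 153, 245 and 182 CPM in L, against 181, 179 and 161 CPM in B.

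Of the genes for apical sorting and epithelial splicing 17 of 18 tested rose and 0 fell, the highest share of any list, with a median of 5.99. Esrp1, the splicing regulator that sets epithelial isoforms, was at 202, 202 and 202 CPM in L, against 0.229, 0.939 and 0.124 CPM in B (log2 fold change 8.94 ± 0.60, adjusted p = 1.2e-05). Ap1m2, whose promoter held 4 CAGGTG, was at 34.7, 37.7 and 25.6 CPM in L, against 0.0686, 0.0383 and 0.0533 CPM in B (log2 fold change 9.22 ± 0.36, adjusted p = 1.01e-06). Rab25 was at 34.1, 57.7 and 36.4 CPM in L, against 0.0686, 0.0767 and 0.142 CPM in B (log2 fold change 8.74). The L levels of these genes varied little between arms, and their B levels were near 0 in every arm. Mal2, which carries cargo to the apical surface, rose by 9.67 on the log2 scale. All 8 of its reads in B lay in B control. Without that library the 3 L libraries together were at least 1359-fold above a floor of 3 reads over the remaining B libraries. This bound drops the only B library with reads and keeps L control without its partner, so it is not paired by arm.

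Adherens and desmosome genes split by member. Of 13 tested cadherins, catenins and nectins 4 rose and 2 fell, with a median of 0.22. Beside Cdh1 the gene of beta-catenin, Ctnnb1, was at 935, 957 and 939 CPM in L, against 547, 400.4 and 481 CPM in B (log2 fold change 1.01 ± 0.19, adjusted p = 0.00504), and the nectin gene Nectin4 rose by 2.92. Ctnna1, which encodes alpha-catenin, rose by 0.86 on the log2 scale. Among 13 tested desmosome genes 7 rose and 0 fell, with a median of 0.92. Dsg3, a desmoglein, was at 230.4, 211 and 296 CPM in L, against 1.07, 0.901 and 5.2 CPM in B (log2 fold change 6.95 ± 0.59, adjusted p = 4.45e-05). Dsc2 (7.74), Dsg2 (6.28) and the plaque linker gene Ppl (5.02) rose too, so both cadherin and linker members of the list were higher in L. Dsp, which encodes the plaque protein desmoplakin, was at 635, 632 and 961 CPM in L, against 672, 487 and 1032 CPM in B and did not pass. Ctnnb1 lost its call without the control arm (adjusted p = 0.0537), as did Ctnna1 without the control or Her2 arm or without B MYC, B Her2 or L Her2 (adjusted p 0.0526 to 0.0873).

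The simple keratins were higher in L and the basal keratins mostly were not. Of 5 tested simple keratin genes 4 rose, with a median of 7.52. Krt18 was at 253, 850.1 and 133 CPM in L, against 1.12, 4.27 and 2.38 CPM in B (log2 fold change 7.07 ± 0.57, adjusted p = 3.53e-05), and its partner Krt8 at 20.9, 31 and 5.89 CPM in L, against 0, 0.0575 and 0.0888 CPM in B (log2 fold change 8.26). Krt19 rose by 7.52. For Krt7, Krt18 and Krt19 the L Her2 library was the highest of the 6. Of 10 tested basal and stratified keratins 2 rose and 0 fell, with a median of -0.02, and the share called (20%) was near that of all tested genes (20.8%). Krt5 was at 797, 994 and 2152 CPM in L, against 1326, 569 and 1422 CPM in B (log2 fold change 0.24, adjusted p = 0.662), and Krt14 at 587, 603 and 1128 CPM in L, against 1380.2, 758 and 1473 CPM in B (-0.61, adjusted p = 0.164). Both basal keratins were thus abundant in both populations, with groups that overlap. The suprabasal keratin gene Krt80 was at 16.7, 102 and 15.5 CPM in L, against 3.15, 5.83 and 4.76 CPM in B (log2 fold change 2.86 ± 0.48, adjusted p = 0.00254).

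Regulators of epithelial identity were mostly higher in L. Of 20 tested epithelial transcription factors 11 rose and 3 fell, with a median of 2.11. Grhl2, an activator of Cdh1 and claudin genes, was at 119.5, 103 and 109 CPM in L, against 1.39, 1.74 and 1.49 CPM in B (log2 fold change 6.14 ± 0.28, adjusted p = 1.48e-06). Ehf, an ETS factor of glandular epithelium, was at 629, 124 and 349 CPM in L, against 8.89, 1.8 and 6.04 CPM in B (log2 fold change 6.03 ± 0.20, adjusted p = 8.47e-07). Its level changed with the arm in parallel in both populations, lowest in the Her2 libraries, so the log2 ratios within arms lay close together, at 6.14, 6.08 and 5.85. Elf3 (5.87), also an ETS factor, and Zfp750 (4.07), a factor of epidermal differentiation, rose too. Among the 3 falls Trp63, which encodes the basal factor p63, was at 215, 121 and 357 CPM in L, against 747, 429.8 and 603 CPM in B (log2 fold change -1.41 ± 0.29, adjusted p = 0.00739), and Klf5 fell by 1.02 on the log2 scale. Trp63 lost its call without the Her2 arm (adjusted p = 0.055), as did Klf5 without B control or L MYC (adjusted p 0.0626 to 0.064). Trp63 and Klf5 lost the call without the arm block (adjusted p 0.0577 to 0.108).

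Of 19 tested mesenchymal transcription factors 8 fell and 3 rose, with a median of -0.95. Zeb1 was at 1.69, 4.35 and 3.0 CPM in L, against 55, 61.1 and 56.6 CPM in B (log2 fold change -4.32 ± 0.28, adjusted p = 1.01e-05). Zeb2 was at 12.2, 16.9 and 19.5 CPM in L, against 139, 109 and 87.8 CPM in B (log2 fold change -2.79 ± 0.25, adjusted p = 5.68e-05). Every L library lay below every B library for both repressors. Twist2 (-3.31) and the homeobox gene Meox1 (-5.54) fell as well. Snai2, the Slug gene, was at 50.8, 14.2 and 65.4 CPM in L, against 16.3, 22.9 and 15.3 CPM in B and did not pass. The list did not move as a whole: Osr1 was at 20.9, 10.5 and 31 CPM in L, against 0.457, 0.307 and 0.373 CPM in B (log2 fold change 5.67 ± 0.38, adjusted p = 1.24e-05), Tbx15 rose by 6.52, and Foxc1 rose by 1.82. These 3 encode factors of mesenchymal development and were higher in L in every arm.

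The CAGGTG letters that ZEB factors bind were unevenly spread over the promoters. Of 13781 tested genes with a RefSeq promoter 2583 (18.7%) held CAGGTG on either strand within the 300 bases. Among genes called higher in L the share was 489 of 1764 (27.7%), among those called lower 243 of 1575 (15.4%), and among those not called 1851 of 10442 (17.7%). Of genes at least 64-fold higher in L 88 of 222 (39.6%) held it. Of the 45 called higher members of the cadherin, tight junction, desmosome, apical and simple keratin lists 25 had a RefSeq promoter in the table used, and 14 of these 25 (56%) held it. Among those 14 were Crb3 and Ap1m2 with 4 matches each, and Krt8, Krt18, Cldn3, Marveld2 and Ocln with 1 each. Of the 21 tested members of the same lists not called higher in L 11 had a promoter in the table, and 4 of these (36.4%) held it. Promoters with 2 or more matches made up 6.52% of genes called higher, 1.21% of those called lower and 2.11% of those not called.

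The shares were also taken by the number of CpG in the promoter. Promoters of genes called higher in L had a median of 15 CpG, those called lower 20 and those not called 18. In promoters of 0 to 5 CpG the share was 26.6% for genes called higher, 14.7% for those called lower and 20.1% for those not called. With 6 to 15 CpG it was 32.3%, 15.6% and 20.4% in the same order, and above 15 CpG 25.8%, 15.5% and 15.7%. Other letters of the same E-box form, searched after the values were seen, differed less. CAGCTG stood in 16.8%, 15.8% and 15.2% of the promoters of genes called higher, called lower and not called, and CACGTG in 7.65%, 11.2% and 8.91%. GGAATG, the letters of TEAD factors, stood in 14.1%, 11.4% and 13.0%. The GRHL2 letters AACCGGTT were in 4, 5 and 20 promoters of the same groups. Matches were counted for each set of letters independently and may overlap, and a match describes the letters and not binding.

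Luminal progenitor genes, which mark the milk-lineage precursors of the duct, rose in 12 of 14 tested cases and fell in 0, with a median of 3.03. Wfdc18, a whey acidic protein family gene, was at 269, 14.1 and 72.4 CPM in L, against 0.0914, 0 and 0.426 CPM in B (log2 fold change 8.91 ± 0.75, adjusted p = 4.11e-05). Ltf, which encodes lactoferrin, was at 411, 144 and 68.7 CPM in L, against 0.16, 0.0192 and 1.54 CPM in B (log2 fold change 8.36 ± 1.46, adjusted p = 0.00309), and at 12.57 without the control arm on the log2 scale. Both were highest in the L MYC library. The receptor gene Kit had 0 reads in B and was at 26.1, 0.0733 and 0.897 CPM in L, at least 483-fold higher over the 3 libraries against a floor of 3 reads in B as a group, with nearly all reads in L MYC. The casein gene Csn1s1, at 34.3, 0.454 and 3.17 CPM in L, counted 3 reads in B, which is a ratio of L to B of 675 with a 95% counting interval of 231 to 3274. Kit lost the call without the arm block (adjusted p = 0.0674), and Kit and Csn1s1 on log2(TPM + 1) (adjusted p 0.0614 to 0.184).

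Hormone sensing luminal genes gave 6 rises and 2 falls among 12 tested, with a median of 0.90. The prolactin receptor gene Prlr was at 82.9, 18.5 and 51.8 CPM in L, against 0.411, 0.633 and 1.14 CPM in B (log2 fold change 5.81 ± 0.63, adjusted p = 0.000196), and Prom1, a surface marker of hormone sensing luminal cells, rose by 4.09. Esr1, the estrogen receptor gene, was at 6.13, 3.62 and 5.94 CPM in L, against 11.6, 8.74 and 8.17 CPM in B (log2 fold change -0.89, adjusted p = 0.0264), so the receptor of this lineage was lower in L. Wnt4, a ligand that luminal cells release on progesterone, fell by 1.42 on the log2 scale. Esr1 lost its call without the MYC or Her2 arm or without B MYC, B Her2, L control, L MYC or L Her2 (adjusted p 0.0705 to 0.206). Esr1 and Wnt4 lost the call without the arm block (adjusted p 0.0505 to 0.0733), and Esr1 on log2(TPM + 1) (adjusted p = 0.134), and Esr1 in the 6 L and B libraries alone (adjusted p = 0.0528).

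Basal mammary genes gave 6 falls and 0 rises among 18 tested, with a median of -0.50. Sparc, a collagen-binding matrix gene, was at 127, 239 and 142 CPM in L, against 917, 370.0 and 1012 CPM in B (log2 fold change -2.20 ± 0.41, adjusted p = 0.00428). Igfbp2 was at 2.53, 2.1 and 6.62 CPM in L, against 88, 19.1 and 77.8 CPM in B (log2 fold change -4.04 ± 0.42, adjusted p = 0.000153), and Bcl11b, a factor of basal stem cells, fell by 1.72. The groups did not overlap for Sparc and Igfbp2. Of 15 tested genes of the myoepithelial contractile apparatus 3 fell and 0 rose, with a median of -0.61. Their share called (20%) was near that of all tested genes (20.8%). Acta2, which encodes smooth muscle actin, was at 12.3, 1.33 and 6.41 CPM in L, against 111, 15.5 and 262 CPM in B (log2 fold change -3.94 ± 0.82, adjusted p = 0.00794), with a B Her2 level far below the other B libraries. Cald1, which encodes the actin-binding caldesmon, fell by 1.04. The remaining called fall was Oxtr, at 5.41, 0.396 and 2.12 CPM in L, against 15.7, 0.575 and 14.4 CPM in B (log2 fold change -1.84 ± 0.51, adjusted p = 0.0285). Of the 15 genes 5 had a log2 fold change above 0. Tagln had 518 reads in L and 1958 in B, while Tpm1 had 67928 and 33899 and Actn1 105317 and 53768. Of the contractile genes Myh11 and Cnn1 averaged under 1 CPM in both populations. Myh11 was at 0.14, 0.176 and 0.208 CPM in L, against 0.0457, 0.0958 and 0.195 CPM in B. Cnn1 was at 0.799, 0.425 and 0.572 CPM in L, against 0.366, 0.288 and 2.27 CPM in B. Markers of basal cells were thus uneven in B, with Krt5, Krt14 and Trp63 at high levels and Myh11 and Cnn1 low. Acta2 and Oxtr in B varied with the arm. Cald1 lost its call without the control arm (adjusted p = 0.0501). Oxtr lost it without the control or MYC arm or without B control, B MYC, L control, L MYC or L Her2 (adjusted p 0.0531 to 0.124). It also lost the call without the arm block (adjusted p = 0.347) and on log2(TPM + 1) (adjusted p = 0.142).

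Markers of cells other than epithelium were checked in the same libraries. Of 12 tested fibroblast genes 7 fell and 0 rose, with a median of -2.40, and their summed level was 415, 20.9 and 45.6 CPM in L, against 469, 96.8 and 1393 CPM in B. Pdgfra, a receptor that marks fibroblasts, was at 14.4, 13.8 and 14 CPM in L, against 102, 52.2 and 58.9 CPM in B (log2 fold change -2.24 ± 0.25, adjusted p = 0.000226). Dcn, which encodes decorin, was at 0.178, 1.47 and 0.325 CPM in L, against 25, 25.5 and 1.23 CPM in B (log2 fold change -4.38 ± 0.80, adjusted p = 0.0039). Pdgfrb fell by 2.55 and Col1a1 by 2.15 on the log2 scale. Of the 12 tested genes 4 had a log2 fold change above 0, with 0 called. Pi16, Thy1, Col3a1 and Mfap5 had 293, 214, 132 and 24 reads in the deeper L libraries. In B they had 140, 131, 77 and 11 reads. Postn, the periostin gene, made up most of the sum in the MYC arm and in B control, but little of it in the Her2 arm. It did not pass, at 393, 0.528 and 23.5 CPM in L, against 312, 8.57 and 1277 CPM in B. In B the list was uneven: Col1a1 was highest and Dcn lowest in B control, at 4.73, 2.38 and 36.3 CPM for Col1a1, while the defining fibroblast genes Lum and Dpt had 7 and 0 reads in L against 5 and 0 in B. Of the endothelial list 1 of 7 tested rose (14.3% called, against 20.8% of all tested genes). This was Tek, at 0.266, 0.586 and 0.234 CPM in L, against 0.0229, 0.115 and 0.107 CPM in B. The sum of the endothelial list was 4.75, 5.35 and 3.47 CPM in L, against 3.27, 4.35 and 5.52 CPM in B. None of 5 tested leukocyte genes passed, the smallest adjusted p being that of Cd79a (0.128), and the sum was 1.92, 2.14 and 1.79 CPM in L, against 1.6, 1.99 and 1.46 CPM in B. Adgre1 and Tyrobp had 0 reads in L and in B. The part of fibroblast-like cells in the genes lower in L was not tested. Col1a1 lost its call without the control arm or without B control, B MYC, L control, L Her2, bi control, bi MYC or bi Her2 (adjusted p 0.0502 to 0.184, log2 fold change as near to 0 as -0.96), as did Tek without the MYC or Her2 arm or without B MYC, B Her2, L MYC or L Her2 (adjusted p 0.0637 to 0.139). Tek lost the call without the arm block (adjusted p = 0.0642), and Col1a1 and Tek on log2(TPM + 1) (adjusted p 0.0988 to 0.238), and Col1a1 in the 6 L and B libraries alone (adjusted p = 0.0574).

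The extracellular matrix held many of the genes lower in L. Of 25 tested matricellular and proteoglycan genes 13 fell and 5 rose, with a median of -1.92. Thbs2, a matricellular thrombospondin gene, was at 27.5, 41.8 and 46.4 CPM in L, against 1492, 731 and 1106 CPM in B (log2 fold change -4.72 ± 0.41, adjusted p = 5.18e-05). Tgfbi was at 5.94, 16.3 and 6.12 CPM in L, against 339, 179 and 184 CPM in B (log2 fold change -4.57 ± 0.57, adjusted p = 0.000444), and the fibrillin gene Fbn1 fell by 3.97. In the other direction Vcan, which encodes the proteoglycan versican, was at 97.1, 239 and 216 CPM in L, against 40.2, 50.6 and 77.3 CPM in B (log2 fold change 1.63 ± 0.25, adjusted p = 0.00151), and Fbln5 rose by 2.17. Of 21 tested collagens 7 fell and 1 rose, with a median of -0.57. Col5a1 was at 10.2, 51.4 and 20.5 CPM in L, against 196, 131 and 262 CPM in B (log2 fold change -3.03 ± 0.50, adjusted p = 0.00223), and Col5a3 fell by 4.21. Col12a1 fell by 3.81, at 68.7, 36.5 and 100.1 CPM in L, against 2051, 83.8 and 1887 CPM in B, so its B Her2 library lay below 1 of the L libraries. Col11a1 was the 1 collagen gene called higher in L, at 205, 26.1 and 115 CPM in L, against 1.58, 0.613 and 8.47 CPM in B (log2 fold change 5.27 ± 0.72, adjusted p = 0.000755).

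Of 13 tested laminin and basement membrane genes 3 rose and 1 fell, with a median of 0.57. Their share called was 30.8%, against 20.8% of all tested genes. Lamb3, a chain of the laminin that anchors epithelium, was at 411, 548 and 456 CPM in L, against 47.2, 128 and 78.9 CPM in B (log2 fold change 2.54 ± 0.28, adjusted p = 0.000213). All 3 L libraries lay above all 3 B libraries. Integrins split into 4 rises and 6 falls among 20 tested, with a median of -0.06. Itga8, a receptor chain for nephronectin, was at 10.4, 12.6 and 17.1 CPM in L, against 0, 0.0383 and 0.071 CPM in B (log2 fold change 8.38 ± 0.46, adjusted p = 5.49e-06). Itgb6, which pairs with the alpha v chain in epithelia, rose by 4.45. Itga5, the fibronectin receptor chain, fell by 1.07. Itga5 lost its call without the control or MYC arm or without L control or L MYC (adjusted p 0.0537 to 0.0802).

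Matrix proteases and their inhibitors gave 11 falls and 4 rises among 22 tested, with a median of -0.98. Mmp9, a gelatinase gene, was at 0.102, 0.791 and 0.234 CPM in L, against 5.07, 5.85 and 11.3 CPM in B (log2 fold change -4.75 ± 0.58, adjusted p = 0.000397). Mmp3, a stromelysin gene, was at 1.56, 10.9 and 4.54 CPM in L, against 36.3, 25.5 and 111 CPM in B (log2 fold change -3.77 ± 0.65, adjusted p = 0.00298). All L libraries lay below all B libraries for both. The macrophage elastase gene Mmp12 was at 1.29, 0.733 and 1.03 CPM in L, against 22.1, 7.71 and 561 CPM in B (log2 fold change -6.07, and -3.80 without B control), and the collagenase gene Mmp13 fell by 5.09, or by 3.38 without B control. Higher in L were the inhibitor gene Timp3, at 850.4, 1188 and 995 CPM in L, against 75.5, 65.2 and 203 CPM in B (log2 fold change 3.34 ± 0.37, adjusted p = 0.000213), the protease gene Adamts1 (2.09), and Serpinb5, which encodes maspin (1.73).

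Among receptors and ligands of tyrosine kinases, 10 of 32 tested receptors rose and 8 fell, with a median of 0.31. Erbb3, the partner that heterodimerizes with Her2, was at 98.9, 110.2 and 62.4 CPM in L, against 5.58, 9.51 and 2.65 CPM in B (log2 fold change 4.01 ± 0.40, adjusted p = 0.000114). Epha1 was at 57.3, 54 and 53.6 CPM in L, against 3.54, 6.11 and 6.0 CPM in B (log2 fold change 3.39 ± 0.31, adjusted p = 6.56e-05), and its L level was even over the arms. Ret rose by 5.72. Ephb2 fell by 2.04 on the log2 scale, beside Pdgfra and Pdgfrb above, and Axl, the receptor of Gas6, fell by 1.18. Of 10 tested EGF family ligands, on which mammary epithelium depends, 1 fell and 0 rose (10% called, against 20.8% of all tested genes). The fall was that of Epgn, at 1.4, 9.59 and 5.54 CPM in L, against 11.6, 21 and 30.7 CPM in B (log2 fold change -2.27 ± 0.35, adjusted p = 0.00159). Of 20 tested FGF, PDGF and related ligand genes 5 rose and 5 fell. Pdgfb, which encodes a ligand of the receptor encoded by Pdgfrb, was at 12.4, 11.8 and 7.75 CPM in L, against 0.16, 0.153 and 1.67 CPM in B (log2 fold change 4.35 ± 0.76, adjusted p = 0.00307), so this ligand was higher in L and its receptor higher in B. Gas6 was at 57.2, 13.6 and 50.4 CPM in L, against 229.9, 70.2 and 96.7 CPM in B (log2 fold change -1.74 ± 0.28, adjusted p = 0.00195), lower in L together with its receptor gene Axl. Vegfd fell by 2.70. Axl lost its call without the control or MYC arm or without B MYC, B Her2, L control, L MYC or bi MYC (adjusted p 0.0585 to 0.234, log2 fold change as near to 0 as -0.63). Axl, Epgn and Gas6 lost the call without the arm block (adjusted p 0.117 to 0.156), and Ret on log2(TPM + 1) (adjusted p = 0.0583).

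The Wnt list gave 13 rises and 7 falls among 39 tested, with a median of 0.73, and several of the rises were antagonists. Nkd2, an intracellular inhibitor of Wnt signals, was at 186, 111 and 156 CPM in L, against 0.343, 0.326 and 1.51 CPM in B (log2 fold change 7.81 ± 0.47, adjusted p = 6.91e-06). Sfrp1, a secreted inhibitor, was at 212, 105 and 185 CPM in L, against 53.4, 5.54 and 60.2 CPM in B (log2 fold change 2.43 ± 0.48, adjusted p = 0.00619). Wif1, which binds Wnt ligands, rose by 6.67. Sostdc1, at 15.8, 3.28 and 20.2 CPM in L, counted 1 read in B, and the ratio of L to B was 2055 with a 95% counting interval of 368 to 81177. Falls were found for the ligands Wnt5a, at 4.85, 9.01 and 16.2 CPM in L, against 42.7, 41.7 and 108 CPM in B (log2 fold change -2.72 ± 0.37, adjusted p = 0.000694), and Wnt9a (-2.33), and for the secreted Dkk3 (-1.40). In the Notch list 5 of 16 tested rose and 3 fell, with a median of -0.02. The target genes Hey1, at 8.72, 1.8 and 6.89 CPM in L, against 0.343, 0.192 and 0.391 CPM in B (log2 fold change 4.04 ± 0.43, adjusted p = 0.000175), and Hes1 (1.45) rose, as did the feedback gene Nrarp (2.34) and the ligand modifier Rfng (1.51). The ligand gene Jag1 was at 77.4, 71.7 and 78.8 CPM in L, against 223, 128 and 426 CPM in B (log2 fold change -1.66 ± 0.32, adjusted p = 0.00488), lower in L in every arm. Nrarp lost its call without the Her2 arm or without B Her2 or L Her2 (adjusted p 0.056 to 0.0934). Sfrp1 and Dkk3 lost the call without the arm block (adjusted p 0.0801 to 0.145), and Wif1 on log2(TPM + 1) (adjusted p = 0.0818).

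In the TGF-beta and BMP list 6 of 39 tested rose and 9 fell, with a median of 0.04. Bmp7, a ligand gene, was at 33.5, 9.57 and 34.5 CPM in L, against 1.35, 0.958 and 2.2 CPM in B (log2 fold change 3.98 ± 0.31, adjusted p = 2.66e-05), and Grem1, a secreted inhibitor of BMP ligands, was at 0.228, 4.94 and 1.05 CPM in L, against 8.07, 41.7 and 17.7 CPM in B (log2 fold change -3.93 ± 0.39, adjusted p = 0.000118). Tgfbr2, the receptor that binds TGF-beta, was at 121, 209.8 and 162 CPM in L, against 521, 352 and 398 CPM in B (log2 fold change -1.36 ± 0.26, adjusted p = 0.00461). Of these 3 genes Bmp7 was thus higher in L and Grem1 and Tgfbr2 were lower. They give no direction for BMP or TGF-beta genes as a whole. Ltbp2, a matrix protein of the latent TGF-beta binding family, rose by 4.39, and the activin-binding Fst by 2.66. Fstl1 fell by 3.47. YAP and TEAD targets, read as a sign of mechanical signals, gave 4 rises and 4 falls among 22 tested and a median near 0. Ankrd1 was at 85.8, 91.3 and 19.8 CPM in L, against 0.571, 2.22 and 3.14 CPM in B (log2 fold change 4.88 ± 0.81, adjusted p = 0.00231), and Crim1 fell by 1.17. AP-1 and ERK feedback genes gave 7 rises and 1 fall among 25 tested, with a median of 0.02. Their share called was 32%, against 20.8% of all tested genes. The phosphatase gene Dusp4 was at 103, 239 and 169 CPM in L, against 19.1, 33.8 and 46.2 CPM in B (log2 fold change 2.36 ± 0.28, adjusted p = 0.000362), the factor gene Fosb rose by 1.89, and Atf3 by 2.53. Grem1, Fst and Atf3 lost the call without the arm block (adjusted p 0.0532 to 0.132).

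Of 11 tested IGF genes 6 fell and 2 rose, with a median of -0.93. Igfbp4, whose promoter held no CAGGTG, was at 57.1, 134 and 92.8 CPM in L, against 3314, 3266 and 1992 CPM in B (log2 fold change -4.92 ± 0.33, adjusted p = 1.24e-05). Igfbp6 fell by 3.70. Igfbp5 went the other way, at 104, 14.4 and 9.06 CPM in L, against 0.0229, 0.0383 and 0.195 CPM in B (log2 fold change 8.09 ± 0.83, adjusted p = 0.00014), highest in L MYC. The insulin receptor substrates also parted: Irs1 rose by 1.75, at 86.3, 95.3 and 74.1 CPM in L, against 23.8, 18.4 and 35.4 CPM in B, and Irs2 fell by 2.12, at 28.6, 23.1 and 21.1 CPM in L, against 135, 94.3 and 89.5 CPM in B. Guidance genes gave 9 rises and 10 falls among 33 tested, with a median of 0.18. Sema6a was at 149, 39 and 101 CPM in L, against 4.94, 3.97 and 6.91 CPM in B (log2 fold change 4.02 ± 0.30, adjusted p = 2.2e-05), and Slit3, a ligand of ROBO receptors, was at 3.15, 3.15 and 4.12 CPM in L, against 173, 129 and 91.2 CPM in B (log2 fold change -5.16 ± 0.32, adjusted p = 7.94e-06). Nrp1, a receptor for semaphorins and VEGF, fell by 2.03. Of 20 tested Hox genes 5 fell and 1 rose (30% called, against 20.8% of all tested genes). Hoxb9 was at 7.42, 10.3 and 11.3 CPM in L, against 27.1, 31.9 and 22.2 CPM in B (log2 fold change -1.51 ± 0.25, adjusted p = 0.0025), and Hoxa7 rose by 2.73. Hoxa7 lost its call without the control arm or without B MYC (adjusted p 0.0589 to 0.0752).

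Secreted signals of the immune system moved in both directions. Of 13 tested CXC chemokine genes 4 rose and 4 fell. Cxcl12 was at 2.26, 0.704 and 1.82 CPM in L, against 251, 39 and 80.5 CPM in B (log2 fold change -6.07 ± 0.34, adjusted p = 5.64e-06), and Cxcl16 was at 92.4, 146 and 98.8 CPM in L, against 17.3, 20.7 and 28.9 CPM in B (log2 fold change 2.35 ± 0.22, adjusted p = 7.7e-05). Of 12 tested CC chemokine genes 4 fell and 1 rose. Ccl2, which attracts monocytes, was at 0.964, 0.278 and 1.0 CPM in L, against 27, 6.27 and 60.8 CPM in B (log2 fold change -5.10 ± 0.42, adjusted p = 3.86e-05), and Ccl7 fell by 7.07. Both were highest in B control. Cytokines and their receptors gave 9 rises and 9 falls among 27 tested. Csf3, which encodes G-CSF, was at 56.4, 463 and 133 CPM in L, against 0.823, 19.1 and 2.79 CPM in B (log2 fold change 5.26 ± 0.44, adjusted p = 4.11e-05). Il1a was at 203, 1037 and 271 CPM in L, against 28, 145 and 63.1 CPM in B (log2 fold change 2.61 ± 0.22, adjusted p = 3.76e-05), with the Her2 library highest in each population. Tnf rose by 7.05. Receptors were among the falls, with Osmr at 78.4, 28.1 and 52.1 CPM in L, against 236, 85.7 and 153 CPM in B (log2 fold change -1.58 ± 0.16, adjusted p = 0.000131), Il6ra (-1.93) and the decoy receptor gene Il13ra2 (-5.28). Il1a and Osmr lost the call without the arm block (adjusted p 0.0609 to 0.0637).

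Defence genes that epithelia secrete rose in 13 of 19 tested cases and fell in 1, with a median of 4.11. Wfdc2, a protease inhibitor family gene, was at 148, 360.1 and 178 CPM in L, against 0.0914, 0.0767 and 0.32 CPM in B (log2 fold change 10.41 ± 0.51, adjusted p = 2.55e-06). Pglyrp1, which binds bacterial peptidoglycan, was at 18, 29.1 and 13.9 CPM in L, against 0.137, 0.115 and 0.195 CPM in B (log2 fold change 7.06 ± 0.50, adjusted p = 1.68e-05). S100a9, a calprotectin subunit gene, rose by 7.83 on the log2 scale. All 5 of its reads in B lay in B control. Without that library S100a9 was at least 256-fold higher in the 3 L libraries together, with the same floor and the same limit as for Mal2. The acute-phase gene Saa3 was the 1 fall (-3.16). Of 15 tested complement genes 6 fell and 2 rose, with a median of -0.13. C1s1, a protease of the classical pathway, was at 8.95, 1.92 and 3.2 CPM in L, against 557, 104 and 319 CPM in B (log2 fold change -6.15 ± 0.35, adjusted p = 5.69e-06). C1rl (-4.41) and the lectin pathway gene Masp1 (-4.57) fell too, while Cd55, a surface inhibitor of complement, rose by 5.05. Saa3 lost the call without the arm block (adjusted p = 0.0539).

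MHC class I presentation had 10 falls and 0 rises among 17 tested, with a median of -0.77. Nlrc5, the transactivator of class I genes, was at 1.56, 1.1 and 1.34 CPM in L, against 11.6, 10.3 and 6.36 CPM in B (log2 fold change -2.79 ± 0.38, adjusted p = 0.000747). The peptide transporter gene Tap2 was at 6.98, 2.46 and 3.33 CPM in L, against 27.3, 14.6 and 12.6 CPM in B (log2 fold change -2.17 ± 0.28, adjusted p = 0.000521). Tap1 (-1.89) and the immunoproteasome gene Psmb8 (-2.39) fell as well, and in all 4 genes the L MYC library was the highest of the L libraries. Many members lie together on chromosome 17: within the window from 30 to 40 Mb 8 of 10 tested members fell, with a median of -1.12. The window as a whole was low in L, with 58 of 96 protein-coding genes of at least 5 CPM called lower (60.4%) and a median of -0.77. Of the 7 members elsewhere 2 fell, Nlrc5 and the immunoproteasome gene Psmb10, with a median of -0.37. The part of the region in the list's count was not tested. Of the interferon response genes 8 of 29 tested rose and 0 fell (27.6% called, against 20.8% of all tested genes). Protein-coding genes as a whole were called higher in 14.5% and lower in 12.3% of cases. The median of the list was 0.76. Its summed level was 549, 171 and 212 CPM in L, against 298, 199 and 215 CPM in B. The RNA sensor gene Ifih1 was at 63.8, 12.4 and 13.8 CPM in L, against 5.19, 3.09 and 8.74 CPM in B (log2 fold change 2.00 ± 0.47, adjusted p = 0.0138), and at 1.33 without the MYC arm. Ifih1 lost its call without the Her2 arm (adjusted p = 0.062). Psmb8, Tap1, Tap2 and Ifih1 lost the call without the arm block (adjusted p 0.0502 to 0.118).

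Genes of the G2/M phase were higher in L, and those of G1/S less evenly so. Of 28 tested G2/M genes 26 rose and 0 fell, with a median of 1.14. Ccna2, the cyclin A2 gene, was at 150.0, 229 and 324 CPM in L, against 49.6, 35.8 and 93.8 CPM in B (log2 fold change 1.99 ± 0.25, adjusted p = 0.000514). Plk1, a mitotic kinase gene, was at 48, 128 and 114 CPM in L, against 26.5, 15.6 and 47.8 CPM in B (log2 fold change 1.67 ± 0.36, adjusted p = 0.00884), and rose by 1.05 without the Her2 arm. The median of the list within arms was 0.68 in the MYC, 1.77 in the Her2 and 0.93 in the control arm. G1/S genes gave 12 rises and 0 falls among 26 tested, with a median of 0.61. The L and B groups were free of overlap for none of them, against 32.2% of all tested genes. Mcm3, a subunit of the replicative helicase, was at 106, 245 and 259.6 CPM in L, against 46, 125 and 104 CPM in B (log2 fold change 1.16 ± 0.19, adjusted p = 0.00202), so both populations were low in the MYC arm. Among 15 tested D cyclins and CDK inhibitors 3 rose and 6 fell. Ccnd1, the cyclin D1 gene, was at 424, 1660.0 and 782 CPM in L, against 219.6, 626 and 407 CPM in B (log2 fold change 1.12 ± 0.23, adjusted p = 0.0069). Cdkn1a, the p21 gene, rose by 1.90. Of 19 tested p53 targets 2 rose and 2 fell, and the share called (21.1%) was near that of all tested genes (20.8%). Fas, the death receptor gene, was at 5.16, 1.45 and 4.42 CPM in L, against 35.3, 15.7 and 13.3 CPM in B (log2 fold change -2.59 ± 0.34, adjusted p = 0.000627). Mcm3, Ccnd1 and Cdkn1a lost the call without the arm block (adjusted p 0.161 to 0.195).

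Lipid synthesis genes were often higher in L, and several hypoxia-linked genes were lower. Of 20 tested fatty acid synthesis genes 8 rose and 1 fell, with a median of 0.47. Fasn, the fatty acid synthase gene, was at 2593, 2787 and 2707 CPM in L, against 510.2, 454 and 835 CPM in B (log2 fold change 2.20 ± 0.24, adjusted p = 0.000212). The desaturase gene Scd2 was at 2644, 2690.0 and 3029.9 CPM in L, against 767, 632 and 1284 CPM in B (log2 fold change 1.69 ± 0.24, adjusted p = 0.000949). Cholesterol synthesis gave 10 rises and 2 falls among 24 tested, with a median of 0.64. Pmvk was at 42.7, 56.7 and 43.5 CPM in L, against 13.4, 10.1 and 22.2 CPM in B (log2 fold change 1.70 ± 0.26, adjusted p = 0.00161). The sterol isomerase gene Ebp fell (-1.52). Of 27 tested glycolysis and hypoxia genes 11 fell and 0 rose, with a median of -0.48. The glucose transporter gene Slc2a1 was at 106, 251 and 123 CPM in L, against 940.4, 438 and 629.6 CPM in B (log2 fold change -2.02 ± 0.43, adjusted p = 0.00839). Egln3, an oxygen sensor induced by HIF, was at 6.53, 29.1 and 14.4 CPM in L, against 180.4, 89 and 117 CPM in B (log2 fold change -2.96 ± 0.56, adjusted p = 0.00457), and Ndufa4l2 fell by 5.88. The glycolytic enzyme gene Gapdh was at 626, 996 and 1005 CPM in L, against 940.2, 877 and 660.4 CPM in B and did not pass.

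NRF2 and glutathione genes gave 9 falls and 4 rises among 22 tested, with a median of -0.60. Aldh3a1, an aldehyde dehydrogenase gene, was at 12.3, 8.88 and 18.7 CPM in L, against 429, 50.7 and 145 CPM in B (log2 fold change -3.48 ± 0.49, adjusted p = 0.000873). Gclm, the modifier subunit of glutathione synthesis, was at 44.4, 31.7 and 42.1 CPM in L, against 304, 158 and 147 CPM in B (log2 fold change -2.26 ± 0.27, adjusted p = 0.000322). The MYC library was the highest of B for both. Gpx2, the glutathione peroxidase of epithelia, was higher in L by a wide margin, at 228, 168 and 290.2 CPM in L, against 0.229, 0.0575 and 0.852 CPM in B (log2 fold change 9.39 ± 0.52, adjusted p = 5.62e-06). Of 13 mitochondrially encoded genes 1 fell and 0 rose (7.69% called, against 20.8% of all tested genes). The groups were free of overlap for none of the 13, against 32.2% of all tested genes. Of 21 tested long noncoding and microRNA host genes 8 fell and 2 rose. Xist was at 577, 752 and 519.9 CPM in L, against 1368, 1653 and 1451 CPM in B (log2 fold change -1.29 ± 0.21, adjusted p = 0.00188), and Pvt1, the neighbour of Myc, fell by 1.37.

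Among the 10 largest rises at 100 CPM or more were Rassf4, a Ras-association domain gene, at 337, 116 and 288 CPM in L, against 0.732, 0.249 and 1.28 CPM in B (log2 fold change 8.49 ± 0.33, adjusted p = 1.01e-06), and Cadps2, a gene of vesicle release, at 119, 44.5 and 140.4 CPM in L, against 0.0457, 0.115 and 0.337 CPM in B (log2 fold change 9.17 ± 0.41, adjusted p = 1.48e-06). The kallikrein protease gene Klk6, at 7.07, 553 and 11.8 CPM in L and so nearly all in L Her2, counted 2 reads in B, and the ratio of L to B was 13325, with a lower 95% counting bound of 3689. The 10 largest falls at this level held Lgi2, at 46.9, 12.4 and 32.1 CPM in L, against 1221, 409 and 576 CPM in B (log2 fold change -4.63 ± 0.40, adjusted p = 5.07e-05), and Enpp2, at 3.44, 3.0 and 1.7 CPM in L, against 235, 26.3 and 70.6 CPM in B (log2 fold change -4.63 ± 0.74, adjusted p = 0.00193). Enpp2 encodes autotaxin, which makes lysophosphatidic acid.

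The ratio of L to B was not the same in every arm for some genes. At 20 CPM or more in at least 1 library, 53 genes were at least 2-fold higher in L in 1 arm and at least 2-fold lower in another. With 1 library for each population and arm these differences have no test. In 9 of the 10 widest the L Her2 library stood above B Her2 and at least 1 other arm ran the other way. Sprr1a, a cornified envelope gene, was at 0.749, 20.8 and 1.85 CPM in L, against 9.44, 0.307 and 13.4 CPM in B, with log2 ratios of -3.61, 5.95 and -2.83. Dusp1, a phosphatase induced by stress and growth factors, was at 25.8, 202 and 18.3 CPM in L, against 37.6, 30.4 and 65.5 CPM in B, with log2 ratios of -0.54, 2.73 and -1.84. Car6, a secreted carbonic anhydrase gene, ran against them, at 1.28, 0.894 and 1.12 CPM in L, against 4.73, 74.9 and 0.355 CPM in B, with log2 ratios of -1.86, -6.34 and 1.58.

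**Figure D4:**
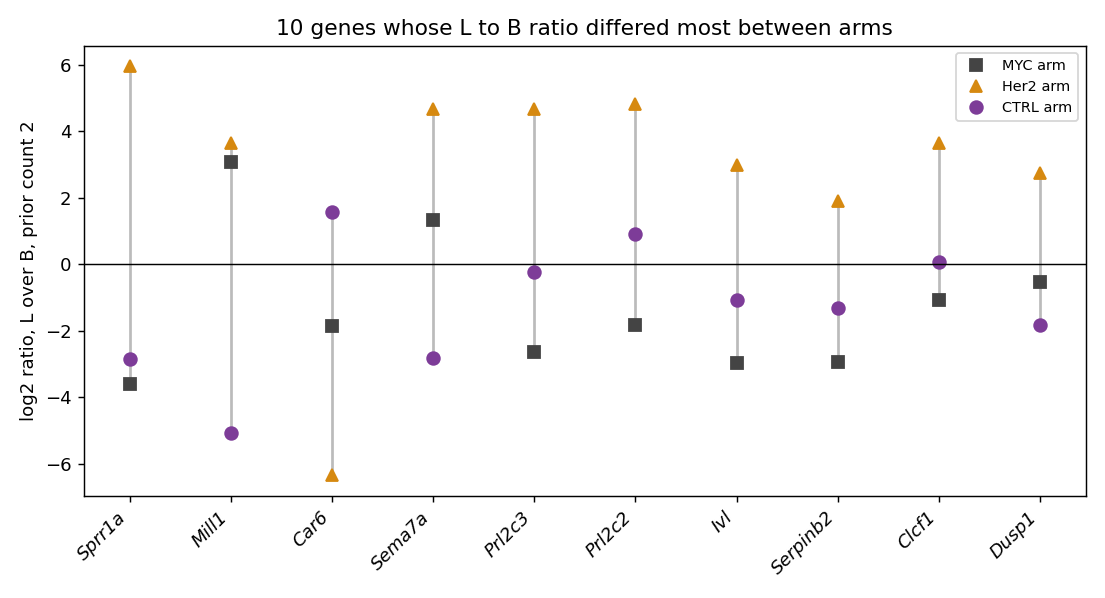
Log2 ratio of L over B within each arm for the 10 genes with the widest range between arms, 1 library against 1, with a prior count of 2. Squares are the MYC, triangles the Her2 and circles the control arm. The Her2 arm is the highest for every gene but Car6, where it is the lowest.

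Differences between L and B were spread unevenly over the chromosomes, a pattern looked for after the values were seen. Over 9599 protein-coding genes with at least 5 CPM on average in each population the median log2 fold change was -0.10. Genes of chromosome 10 had a median of -0.47, and 158 of 483 (32.7%) were called lower in L and 24 (4.97%) higher, against 13.9% lower and 9.39% higher over all 9599. All 12 windows of 10 Mb on chromosome 10 with at least 10 genes had a median below that of all genes, as did all windows on chromosomes 4 (15), 5 (14), 19 (6) and X (13). Chromosomes X (-0.37), 5 (-0.35), 15 (-0.27) and 4 (-0.25) came next, and chromosome 7 had the highest median (0.16). Within each arm chromosome 10 was the lowest, at -0.62, -0.45 and -0.22, against -0.27, -0.09 and 0.09 over all genes in the MYC, Her2 and control arm. Single windows stood further off than any chromosome. The window of chromosome 11 from 120 Mb, which holds Fasn, Zfp750 and Rfng, had a median of 1.44, with 29 of 43 genes (67.4%) called higher in L. The window of chromosome 13 from 20 Mb had a median of 1.09, with 45 of 67 (67.2%) called higher, and that of chromosome 17 from 30 Mb, which holds Tnf and the MHC members above, had the lowest median of all windows. In each of these 3 windows the sign was the same in all 3 arms. The part of these regions in the values of the genes named was not tested. These values are relative to the scaling of the libraries, which moves all chromosomes alike.

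**Figure D5:**
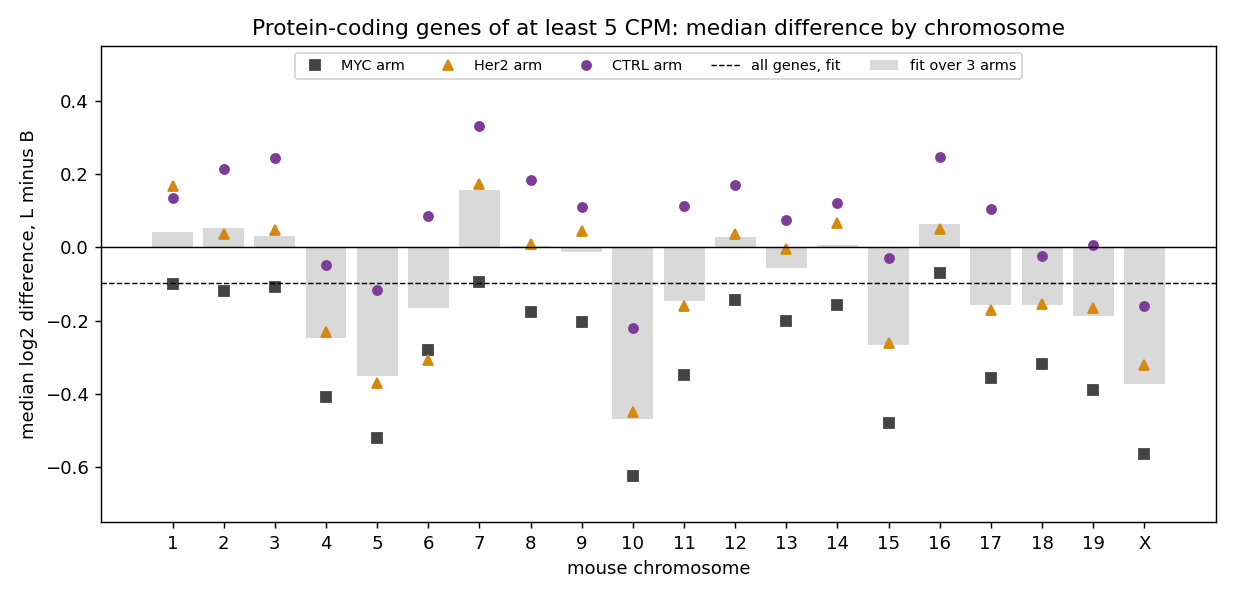
Median log2 difference, L minus B, of protein-coding genes by chromosome. Bars are the fit over the 3 arms, symbols the single arms, and the dashed line the median of all 9599 genes in the fit. Chromosome 10 is the lowest in the fit and in each arm, and chromosome 7 the highest in the fit.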

How the data were processed

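For each library the authors deposited 1 table of genes with an estimated count (NumReads) and TPM, per the file headers, made with Salmon 0.9.1 on mm10, per the submitters' processing notes. These estimated counts, as deposited, need not be whole, and the deposited TPM are scaled to length and depth. The annotation release is not given in the sources used here. Libraries were made with a stranded kit after ribosomal RNA depletion, per the labels' protocols, while the molecule label reads polyA RNA, and RNA came from either of 2 isolation kits, with no note of which library had which. Ribosomal RNA genes took 9.71% to 16.1% of reads over the 9 libraries. Each file lists 54281 genes, and symbols came from the reference by Ensembl identifier (53544 matched with version).

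Estimated counts were rounded, filtered with filterByExpr (minimum count 10, minimum total 15) and fitted in edgeR 4.0.16 (R 4.3.3) with population and arm as additive terms on all 9 libraries, which leaves 4 residual degrees of freedom. The residual holds the interaction of population and arm. SE is the log2 fold change divided by the square root of F. Ratios within an arm used a prior count of 2. For a population at 0 reads 3 reads served as the floor, and intervals and floors cover counting error only. Alternatives were RLE factors, DESeq2 1.42.0, no filter, the 6 L and B libraries alone, no arm block, limma 3.58.1 on log2(TPM + 1) from the deposited TPM, ribosomal RNA genes left out, and each arm or library left out. Steps were tested on simulated data, which checks the steps and not whether the calls hold in these libraries.

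The comparison, the 48 gene lists and their 964 genes (876 tested, 4 not matched to a symbol) were chosen with earlier results of these data known. The rule names Ly6a, Epcam, Cdh1 and Krt7, then for each list up to 4 called rises and 4 called falls of 1 sign in all arms and at least 5 CPM, or the smallest p where none passed, then the 10 largest rises and falls at 100 CPM or more and the 10 most uneven genes between arms. It gave 244 genes, of which the text names those least changed by the alternatives and some that lost a call. Members named as not passing, Cldn2, Crb3, Ocln and Psmb10, the chromosome windows and the 5 promoters printed were picked after their values were seen. Reads of near-identical genes (C1s1 and C1s2, Prl2c2 and Prl2c3, Krt6a and Krt6b, the Ugt1a and H2 genes) are split by estimation and are uncertain, and whether strand was used in counting is not given in the sources used here.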

Additional observations from a re-analysis of the deposited data

Results flagged for a closer look

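The ratio of L to B ran in opposite directions between arms for 10 genes, given here with the range of the log2 ratio over the 3 arms. None of these differences was tested, since each arm has 1 L and 1 B library. Sprr1a had a range of 9.56, with log2 ratios of -3.61, 5.95 and -2.83 in the MYC, Her2 and control arm. Prl2c3 had a range of 7.31 (-2.62, 4.68 and -0.24) and Prl2c2, its close copy, 6.64 (-1.82, 4.82 and 0.91), so both placental hormone family genes were highest in L Her2. The involucrin gene Ivl had a range of 5.95 (-2.98, 2.97 and -1.07) and the serpin gene Serpinb2 4.83 (-2.93, 1.90 and -1.31). The cytokine gene Clcf1 had a range of 4.73, at 6.5, 257 and 17.6 CPM in L, against 13.9, 20.6 and 16.7 CPM in B, and Dusp1 a range of 4.57. Sema7a, a membrane-anchored semaphorin gene, had a range of 7.51, at 0.216, 26.7 and 0.533 CPM in L, against 0.0686, 1.02 and 3.98 CPM in B. In these 8 genes L stood above B in the Her2 arm and below it in the MYC or the control arm.

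In each of the other 2 genes a single B library was high. Mill1, an MHC class I-like gene, had a range of 8.74, at 1.37, 0.586 and 1.16 CPM in L, against 0.137, 0.0192 and 40.2 CPM in B, so the B control library alone was high. Car6 had a range of 7.92, at 1.28, 0.894 and 1.12 CPM in L, against 4.73, 74.9 and 0.355 CPM in B, with B Her2 high.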

How the results depend on the processing

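Of the 231 named called genes with a test 0 reversed under any alternative. The rule took list members for a call and 1 sign in all 3 arms, so a reversal was unlikely from the start. Of the 231 genes 148 kept their call under every alternative and 177 in all fits that left out an arm or library. Dropping the arm block ended 57 calls, log2(TPM + 1) 25, the 6 libraries alone 5, DESeq2 3 and RLE factors 2, while leaving out B MYC ended 31 and the MYC arm 30. The count of 4953 called genes was 4806 with RLE factors, 5178 in DESeq2, 5574 with no filter, 4113 in the 6 libraries alone, 3369 without the arm block, 4038 on log2(TPM + 1) and 4950 without ribosomal RNA genes. Leaving out an arm or library gave 2994 (without the MYC arm) to 5328 genes, 1891 to 2905 higher in L and 1103 to 2597 lower. The count lower in L was 1416 with no arm block, 1282 without L MYC, 1328 without L control and 1371 without B MYC, with its lowest value of 1103 where the MYC arm was left out. On log2(TPM + 1) the genes at least 4-fold higher and lower within an arm were 514 and 190 in the MYC, 456 and 209 in the Her2 and 273 and 230 in the control arm, and the ratio of Clcf1 in the control arm turned to -0.12. The median of all genes moved to 0.13 with no filter and 0.12 without B control, from 0.04 in the fit as reported. The fit as reported pairs L and B by arm, the block, and the labels give no replicate number. The depth of 46.9 to 75.6 M reads in these libraries leaves genes with few reads in B without a firm fold.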
